A study of Homo sapiens with 6 samples.

Results

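Mucin-type O-glycosylation enzymes were examined in LS174T, a human colorectal adenocarcinoma line that its labels describe as goblet-like, with and without the label FXYD3 knockout. The set holds 48 genes, taken by symbol from the 58735 named genes of the deposited count table, with all 48 found once. Poly(A) RNA was sequenced from 3 wild-type libraries and from 3 libraries labelled FXYD3 knockout, all of the same line and with no treatment given in the labels. The labels describe neither the edit nor whether the knockout is 1 clone, and they name no separate cultures for the libraries within a group. The p-values therefore reflect the spread among these 6 libraries, which may be technical. In such bulk samples, fewer cells of a type and less RNA per cell cannot be told apart.

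Mucins are proteins whose serine- and threonine-rich repeats are covered by sugar chains built one sugar at a time in the Golgi. Polypeptide GalNAc-transferases (GALNT) start each chain, core enzymes add the first branches, and further enzymes extend the chain and cap it with sialic acid, fucose or sulfate. Several of these enzymes compete for the same acceptor, so the chains a goblet cell makes depend on which enzymes it holds. Transcript levels are described here. Chains and enzyme activity were not measured.

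Named genes received 15417232 to 19453217 counts per library. FXYD3 itself, a small regulator of the sodium pump, was counted 54, 91 and 55 times in wild type and 79, 131 and 85 times under the knockout label, a log2 fold change of 0.54 with an edgeR adjusted p of 0.0522. The targeted transcript was thus not lower in the libraries labelled knockout, and whole-gene counts do not show the edit itself. Each direction given here rests on the labels. Colon epithelial markers were present in both groups, with a summed level of 10340 to 11640 CPM (counts per 1000000, scaled for library composition) in wild type and 11220 to 11960 CPM in the knockout-labelled libraries, mostly from KRT8 and KRT18. Of these 9 markers CDX1 was called lower (log2 fold change -0.68) and LGALS4 higher (0.22). The summed level of 9 goblet-cell markers was 714 to 889 CPM in wild type and 519 to 575 CPM under the knockout label, mostly from AGR2. Of them MUC2, TFF3, SPDEF, AGR2, FCGBP and SPINK4 were called lower, beside 12.4% of all tested genes. ATOH1 was not called (log2 fold change -0.20). The goblet markers CLCA1 (2 and 13 counts over the wild-type and the knockout-labelled libraries) and ZG16 (6 and 0) were nearly absent. Among markers of other cell types, PTPRC and CD3E of leukocytes, COL1A2 of fibroblasts and PECAM1 and KDR of endothelium had 0 counts in all 6 libraries. The summed fibroblast markers stayed at or below 2.20 CPM and the endothelial ones at or below 0.298 CPM, while the summed leukocyte markers, 34.1 to 38.4 CPM in wild type and 32.5 to 33.8 CPM under the knockout label, came mostly from LYZ, with CD14 at 189 and 20 counts. The part of the goblet-marker shift in the results below was not tested.

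The promoters of 4 members on which the results turn are shown first: GALNT12, with the lowest log2 fold change of the tested members, GAL3ST2, a large rise, and the neighbouring genes FUT3 and FUT6, which went opposite ways. Each is the 250 bases before the RefSeq start on GRCh38.p14, written 5′ to 3′ along the gene's strand, with every CG dinucleotide in capitals.
GALNT12 (chr9:98807420-98807669, plus strand): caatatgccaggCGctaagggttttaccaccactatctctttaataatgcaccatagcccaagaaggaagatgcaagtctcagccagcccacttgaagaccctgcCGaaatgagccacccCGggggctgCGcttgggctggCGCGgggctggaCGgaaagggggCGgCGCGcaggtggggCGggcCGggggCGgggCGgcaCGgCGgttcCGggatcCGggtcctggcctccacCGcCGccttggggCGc
GAL3ST2 (chr2:241776572-241776821, plus strand): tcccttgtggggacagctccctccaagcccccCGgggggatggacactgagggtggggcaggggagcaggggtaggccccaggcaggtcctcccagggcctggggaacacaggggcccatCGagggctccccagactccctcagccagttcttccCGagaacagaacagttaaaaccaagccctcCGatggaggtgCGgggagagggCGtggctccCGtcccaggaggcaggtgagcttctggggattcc
FUT3 (chr19:5851450-5851699, minus strand): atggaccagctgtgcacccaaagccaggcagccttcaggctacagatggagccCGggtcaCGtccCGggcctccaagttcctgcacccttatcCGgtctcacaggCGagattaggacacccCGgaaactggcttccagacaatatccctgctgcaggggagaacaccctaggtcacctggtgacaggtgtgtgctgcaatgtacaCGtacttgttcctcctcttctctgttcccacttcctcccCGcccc
FUT6 (chr19:5839703-5839952, minus strand): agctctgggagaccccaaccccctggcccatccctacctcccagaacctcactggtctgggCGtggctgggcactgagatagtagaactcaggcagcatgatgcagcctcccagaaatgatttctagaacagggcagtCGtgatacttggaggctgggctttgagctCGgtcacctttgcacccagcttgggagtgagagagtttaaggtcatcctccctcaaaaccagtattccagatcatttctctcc
The GALNT12 window held 21 CG dinucleotides, a number reached by 30.2% of 35116 RefSeq promoters of the same length. GAL3ST2 held 7 (reached by 58.9%), FUT3 held 8 (56.3%) and FUT6 held 3 (77.1%), and the median over all promoters was 11. The motif TATAAA, searched on both strands, was in none of these 4 windows and in 10.7% of all promoters. In total 36 of the 48 members had an entry in the promoter table. DNA methylation was not measured in these libraries.

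Of the 48 enzymes, 36 passed the filter on low counts and were tested, 8 had counts but fell below it, and 4 (GALNT14, B3GNT6, B4GALNT2 and A4GNT) had 0 counts in all libraries. At an edgeR adjusted p below 0.05, 10 of the 36 rose and 8 fell under the knockout label. These 18 of 36 members stand beside 24.3% of all 15351 tested genes called either way, 12.0% called higher and 12.4% called lower. The groups did not overlap in CPM for 20 of the 36, beside 37.2% of all tested genes. Among the 28 members with a mean of at least 5 CPM, a comparison added after the values were seen, 13 were called and 15 did not overlap between groups, beside 26.0% and 38.8% of all genes at that level. Calls with a log2 fold change of 1 or more in either direction numbered 6 among members (6.1% of all genes), and those of 0.5 or more numbered 9 (11.3% of all genes). The median log2 fold change of the tested members was 0.02 and that of all tested genes 0.002. Without knockout-labelled library 1 the number of members called lower was 5 instead of 8. The counts by step that follow are small, and are read against the same 24.3% of all tested genes called either way, 12.0% higher and 12.4% lower.

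**Figure D1:**
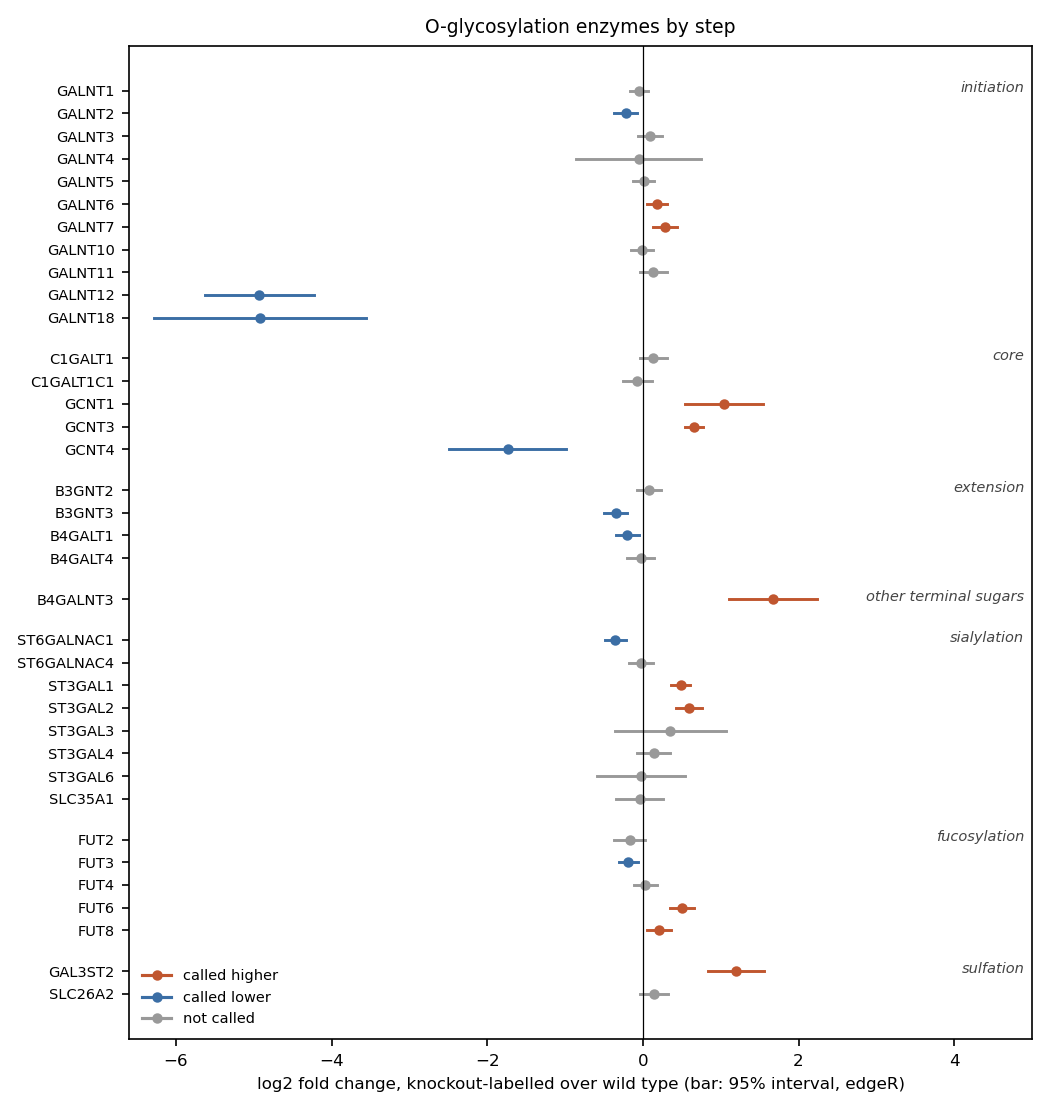
Log2 fold change (x axis, knockout-labelled over wild type, edgeR) of the 36 tested enzymes (y axis), grouped by step, with bars for the 95% interval and colour for the call at an adjusted p below 0.05. GALNT12 and GALNT18 lie near -4.9, and B4GALNT3, GAL3ST2 and GCNT1 lie above 1, while most other members lie within a fraction of a log2 unit of 0.

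Among the initiating enzymes, 2 of 11 tested members rose and 3 fell. A pair of less abundant ones, GALNT12 and GALNT18, nearly disappeared, while the summed level of the step overlapped between groups. GALNT12 (ENSG00000119514; GRCh38 chromosome 9, 98807699 to 98850081), a GalNAc-transferase of the digestive tract, had 96, 117 and 99 counts in wild type but 5, 3 and 2 under the knockout label. In CPM these were 5.55, 6.57 and 6.15 against 0.323, 0.154 and 0.119, groups that lay far apart. Its log2 fold change was -4.93 (SE 0.34, 95% interval -5.62 to -4.23, edgeR adjusted p = 6.885e-12). The pooled counts were 31.6-fold higher in wild type, with an exact Clopper-Pearson interval of 16.9 to 66.5 that covers counting error only.

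GALNT18 (chromosome 11, 11270876 to 11622005), another member of the family, had 24, 26 and 21 counts in wild type and 1, 1 and 0 in the knockout-labelled libraries. Its pooled ratio was 35.9 in favour of wild type (exact interval 9.59 to 302), and its fitted log2 fold change was -4.92 (SE 0.66, edgeR adjusted p = 1.834e-06). GALNT12 and GALNT18 passed the filter through the wild-type libraries alone, so they could be tested only because one group was high. Neither shared any stretch of 75 bases with transcripts of another gene in GENCODE 29, and the antisense gene AL136084.2, which overlaps 21.1% of the GALNT12 exon bases, had 0 counts. The nearest tested genes on each side of these losses were not called, and only ANKS6 was close. For GALNT12 they were ANKS6 (10.7 kb away, log2 fold change 0.14) and TGFBR1 (254 kb, -0.08). For GALNT18 they were ZBED5-AS1 (364 kb, 0.12) and USP47 (219 kb, 0.04).

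The abundant GalNAc-transferases moved little. GALNT1, the most abundant of them per kilobase of transcript, had 204, 191 and 188 CPM in wild type and 194, 181 and 186 CPM in the knockout-labelled libraries, overlapping groups with a log2 fold change of -0.06 (95% interval -0.17 to 0.06). GALNT7, which prefers peptides that already carry GalNAc, rose from 60.8 ± 6.08 to 74.2 ± 3.32 CPM (SD, n = 3 libraries each; log2 fold change 0.29, edgeR adjusted p = 0.0051). GALNT6 was higher at 86.9 ± 3.14 against 76.6 ± 1.99 CPM (edgeR adjusted p = 0.0344), a call that held without wild-type library 2 and was lost without each of the other libraries (adjusted p up to 0.149). GALNT2, a broadly expressed initiator, was lower at 64.2 ± 5.29 against 74.8 ± 2.64 CPM (edgeR adjusted p = 0.0235), a call lost when library 1 of either group was left out (0.122 in wild type and 0.155 under the knockout label) and with scaling to total counts (0.0529). The log2 fold changes of GALNT3, GALNT5, GALNT10 and GALNT11, from 39.1 to 76.5 CPM in wild type, ran from -0.01 to 0.14, and none passed.

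GALNT4 summed to 52 counts over the wild-type libraries and to 51 over the others. Its level is uncertain, because 93.2% of its exon bases also belong to the readthrough gene POC1B-GALNT4. GALNT8, with 8 and 16 counts, was below the filter. GALNT14 had 0 counts, which allows up to 0.154 to 0.195 CPM per library.

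Per kilobase, GALNT1 made up 37.5% ± 1.15 of the summed GalNAc-transferase level in wild type and 36.3% ± 0.604 under the knockout label. GALNT12 went from 1.92% ± 0.174 to 0.0627% ± 0.0335, and GALNT18 from 0.377% ± 0.0143 to 0.0106% ± 0.00931. The summed level was 101 ± 2.49 CPM per kilobase in wild type and 101 ± 2.47 in the knockout-labelled libraries, so GALNT12 and GALNT18 had been a small part of the initiating transcripts.

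In the core step, 2 of 5 tested members rose and 1 fell, all 3 of them branching enzymes. GCNT3, which adds the GlcNAc branch of core 2 and core 4 chains in mucin-secreting tissue, had 112, 108 and 112 CPM in wild type and 177, 169 and 175 CPM in the knockout-labelled libraries. The groups did not overlap, and the log2 fold change was 0.65 (SE 0.06, edgeR adjusted p = 5.372e-10). It was the most abundant core enzyme per kilobase in both groups and went from rank 5 to rank 3 among all members.

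Its relatives GCNT1 and GCNT4, which also make core 2 branches, were far less abundant and moved in opposite directions. GCNT1 had 32, 63 and 30 counts in wild type and 66, 92 and 102 in the knockout-labelled libraries. In CPM it was 1.85, 3.54 and 1.86 against 4.27, 4.71 and 6.08, with wild-type library 2 closest to the other group (log2 fold change 1.04, SE 0.24, edgeR adjusted p = 0.00217). GCNT4 had 26, 48 and 36 counts against 12, 10 and 11, and 2.15 ± 0.602 CPM fell to 0.648 ± 0.132 CPM (log2 fold change -1.73, SE 0.37, edgeR adjusted p = 0.00074). It reached the cutoff of the filter in 3 wild-type but only 2 knockout-labelled libraries. Like GALNT12 and GALNT18, GCNT4 could thus be tested only because the wild-type group was high. Per kilobase, GCNT1 stood at 0.676 ± 0.154 times GCNT4 in wild type and at 4.80 ± 1.30 times GCNT4 under the knockout label. That reversal of order rests on division by gene length. In CPM, GCNT1 in wild type averaged 2.42 ± 0.972, already above GCNT4, though below it in wild-type library 3. Beside GCNT1, RPSAP9 (20.3 kb away) was not called and VPS13A (526 kb) was higher (log2 fold change 0.23, edgeR adjusted p = 0.0447). Beside GCNT4, AC010501.1 (157.5 kb) and ANKRD31 (37.4 kb) were not called.

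C1GALT1, which adds the galactose of core 1, was at 29.03 ± 2.15 CPM in wild type and 31.9 ± 0.629 CPM under the knockout label (log2 fold change 0.14, 95% interval -0.04 to 0.31). Its chaperone C1GALT1C1 had 25.3 ± 1.65 and 24.1 ± 1.43 CPM, a difference of -0.07 on the log2 scale (95% interval -0.26 to 0.11). Neither passed. B3GNT6, the core 3 synthase of normal colon, had 0 counts in every library. GCNT3 alone went from 47.9% ± 1.38 to 59.5% ± 0.635 of the step, and stood at 4.60 ± 0.379 and 6.56 ± 0.233 times C1GALT1 per kilobase. The summed core level was 35.6 ± 0.705 CPM per kilobase in wild type and 45.0 ± 1.23 under the knockout label, a ratio of 1.27 ± 0.0427. This sum includes the chaperone C1GALT1C1, at 39.8% of it in wild type and 29.9% under the knockout label.

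**Figure D2:**
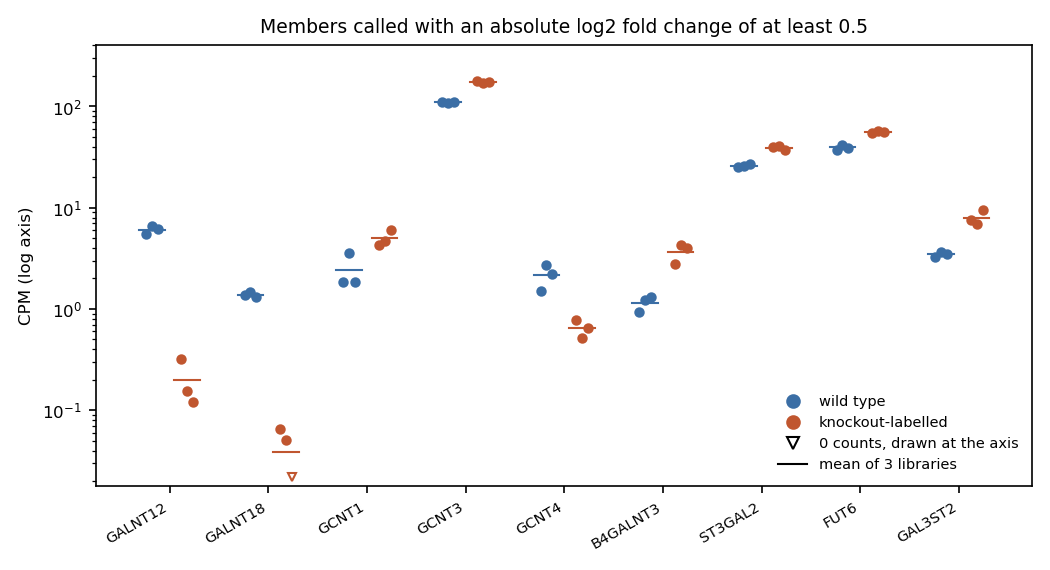
CPM on a log axis for the 9 members called with a log2 fold change of 0.5 or more in either direction, with 1 point per library, a line at the mean of 3 libraries, and an open triangle for the library with 0 counts. GCNT3, FUT6 and ST3GAL2 have the highest CPM of the 9 and tight groups, whereas GALNT12 and GALNT18 drop to 10 and 2 counts over 3 libraries.

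Of the 4 extension enzymes tested, 2 fell and the other two were not called. B3GNT3, which extends core 1 chains and was the most abundant of this step per kilobase, had 72.0, 77.9 and 84.0 CPM in wild type and 60.2, 64.1 and 59.1 CPM in the knockout-labelled libraries. All knockout-labelled values lay below all wild-type ones, with a log2 fold change of -0.35 (SE 0.07, edgeR adjusted p = 0.000474). B4GALT1, a galactosyltransferase that completes N-acetyllactosamine units, was lower at 67.0 ± 3.67 against 76.8 ± 5.26 CPM (edgeR adjusted p = 0.0396). That call was lost under DESeq2 (adjusted p = 0.0548), with total counts (0.0912) and without wild-type library 2 or any 1 knockout-labelled library (up to 0.186).

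B3GNT2, a polylactosamine-extending enzyme, had 43.2 ± 1.49 and 45.5 ± 2.67 CPM, and B4GALT4 had 27.4 ± 0.953 and 26.9 ± 1.42 CPM, neither of which passed. B3GALT5, the enzyme of type 1 chains, and B3GNT7 were below the filter, with 22 and 15 counts in wild type and 6 and 5 under the knockout label. The summed level of the step was 68.6 ± 3.20 CPM per kilobase in wild type and 59.9 ± 1.21 in the knockout-labelled libraries, a ratio of 0.874 ± 0.0444. Of the 3 members that place other terminal sugars, only B4GALNT3 had counts, at a low level. A related enzyme that is not a member, B4GALNT4, was far more abundant and was called lower, from 116 ± 10.1 to 91.7 ± 2.46 CPM. B4GALNT3, which caps chains with GalNAc, had 16, 22 and 21 counts in wild type and 43, 83 and 67 in the knockout-labelled libraries, corresponding to 0.926, 1.24 and 1.30 against 2.78, 4.25 and 3.99 CPM. It rose by a log2 fold change of 1.67 (SE 0.28, edgeR adjusted p = 3.937e-05). Its neighbour NINJ2, 0.787 kb away, fell (log2 fold change -1.46, edgeR adjusted p = 0.00159), and CCDC77 on the other side was not called (-0.18).

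Of the 8 tested members of the sialylation step, ST3GAL1 and ST3GAL2 rose and the sialyl-Tn synthase fell. ST6GALNAC1, which adds sialic acid to the first GalNAc and so makes sialyl-Tn, was the most abundant of them per kilobase. It had 94.1, 97.8 and 106 CPM in wild type and 80.2, 73.9 and 79.3 CPM in the knockout-labelled libraries, with no overlap (log2 fold change -0.35, SE 0.07, edgeR adjusted p = 0.000151). ST3GAL1, which caps the galactose of core 1, had 74.6, 80.1 and 83.2 CPM against 111, 112 and 110 CPM (log2 fold change 0.48, SE 0.06, edgeR adjusted p = 7.72e-07). ST3GAL2, a related enzyme, had 25.2, 25.8 and 27.0 CPM against 39.7, 40.3 and 37.4 CPM (log2 fold change 0.59, SE 0.08, edgeR adjusted p = 2.137e-06).

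Within each library, ST6GALNAC1 stood at 3.13 to 3.28 times ST3GAL1 per kilobase in wild type and at 1.70 to 1.85 times under the knockout label. Such ratios do not depend on how libraries are scaled to one another. The other tested members of the step did not pass: ST6GALNAC4, ST3GAL3, ST3GAL4, ST3GAL6 and the CMP-sialic acid transporter SLC35A1 had log2 fold changes of -0.04 to 0.35. ST6GALNAC2 had 7 and 6 counts in the wild-type and knockout-labelled libraries and ST6GALNAC6 had 12 and 26, both below the filter. SLC35A1, ST6GALNAC6 and ST6GALNAC2 share 55.5%, 47.0% and 38.5% of their exon bases with other genes, so their counts are uncertain. Per kilobase the summed level of the step was 64.6 ± 2.81 in wild type and 63.2 ± 0.0987 under the knockout label, with ST6GALNAC1 going from 44.6% ± 0.833 to 35.7% ± 1.51 of it and ST3GAL1 from 13.9% ± 0.340 to 19.8% ± 0.195. Without division by gene length the direction of the sum turned, from a ratio of 0.979 (knockout-labelled over wild type) to 1.09.

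**Figure D3:**
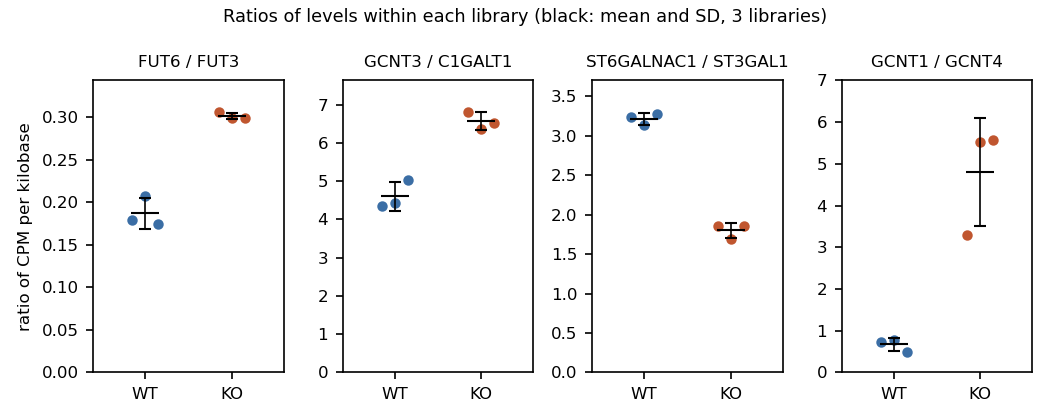
Ratio of 2 members' CPM per kilobase within each library (y axis from 0) for 4 pairs, with 1 point per library and the mean and SD of 3 libraries in black. FUT6 over FUT3, GCNT3 over C1GALT1 and GCNT1 over GCNT4 are higher in every knockout-labelled library than in any wild-type one, and ST6GALNAC1 over ST3GAL1 is lower.

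All 5 fucosyltransferases were tested, and 2 rose and 1 fell. The Lewis fucosyltransferase genes FUT3 and FUT6 lie next to each other on chromosome 19 and went opposite ways. FUT6 (5830610 to 5839731), whose product fucosylates N-acetyllactosamine, had 37.5, 41.5 and 39.1 CPM in wild type and 54.1, 57.2 and 55.9 CPM in the knockout-labelled libraries. It rose by a log2 fold change of 0.50 (SE 0.07, edgeR adjusted p = 6.854e-06). FUT3 (5842888 to 5851474), the Lewis enzyme and the most abundant member of the whole set per kilobase, had 150, 143 and 161 CPM against 127, 137 and 134 CPM. Its log2 fold change was -0.19 (SE 0.06, edgeR adjusted p = 0.0202), and the call was lost when library 1 or 3 of either group was left out (adjusted p up to 0.107).

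FUT6 stood at 0.179, 0.208 and 0.174 times FUT3 per kilobase in the wild-type libraries and at 0.305, 0.299 and 0.299 times in the knockout-labelled ones. The pair are close relatives: 9.84% of the 75-base stretches of FUT3 transcripts also occur in other genes, among them FUT6 (7.75%) and FUT5 (8.55%), and FUT5 had 0 counts in all libraries. Reads from those stretches cannot be assigned, and how such reads were counted is not given in the sources used here. For FUT6 the share of such stretches was 6.19%. FUT2, the secretor enzyme, had 27.5 ± 2.99 and 24.3 ± 2.13 CPM and FUT4 had 55.0 ± 0.314 and 56.3 ± 3.98 CPM, neither passing, though FUT2 was called lower without wild-type library 2 (adjusted p = 0.044 by edgeR). FUT8, which acts on N-glycans and not on mucin-type chains, was higher at 40.2 ± 1.80 against 34.7 ± 0.218 CPM (edgeR adjusted p = 0.047), a call lost on leaving out any 1 library (up to 0.15) and under DESeq2 (0.0795) and limma voom (0.0504). FUT4 overlaps PIWIL4 in 11.3% of its exon bases, and FUT8 overlaps the antisense gene FUT8-AS1 in 12.3%, so reads from there are uncertain too. The summed fucosyltransferase level was 80.02 ± 3.03 CPM per kilobase in wild type and 77.9 ± 2.89 under the knockout label.

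In the sulfation step, 1 of 2 tested members rose and 0 fell. GAL3ST2 (chromosome 2, 241776825 to 241804208), which sulfates galactose at chain ends, had 56, 65 and 56 counts in wild type and 116, 135 and 159 in the knockout-labelled libraries. Its levels, 3.24, 3.65 and 3.48 CPM against 7.50, 6.91 and 9.47 CPM, did not overlap (log2 fold change 1.20, SE 0.18, edgeR adjusted p = 6.69e-06). The next tested gene, AC131097.3, 4.10 kb away, was also higher (log2 fold change 1.01, edgeR adjusted p = 0.00281), while D2HGDH on the other side was not called (0.12). SLC26A2, a sulfate transporter of the plasma membrane, had 27.0 ± 1.28 and 29.9 ± 1.48 CPM, a log2 fold change of 0.14 that did not pass.

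The sulfotransferases CHST4, CHST5 and GAL3ST1 were below the filter, with 21, 11 and 13 counts in wild type and 7, 12 and 11 under the knockout label. CHST5 shares 59.1% of its exon bases with AC009163.2, and GALNT8 43.9% with KCNA6, both of which had 0 counts. GALNT8 also shares 18.8% with AC005833.1, counted 0, 3 and 0 times in wild type and 4, 2 and 1 times under the knockout label. The few counts of GALNT8 are therefore uncertain. Tested without a filter, 0 of the 8 members below it were called by edgeR and 1, B3GALT5, had an unadjusted p below 0.05 (adjusted p = 0.184). In the main fit 34.6% of the genes above the filter had such a p. That share comes from another fit and from genes with more counts, so it is not a like comparison. The other tools were run only with the filter. The summed level of the sulfation step was 5.96 ± 0.178 CPM per kilobase in wild type and 9.47 ± 1.07 in the knockout-labelled libraries. GAL3ST2 went from 42.3% to 61.1% of this sum, and the transporter SLC26A2 from 52.6% to 36.9%.

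**Figure D4:**
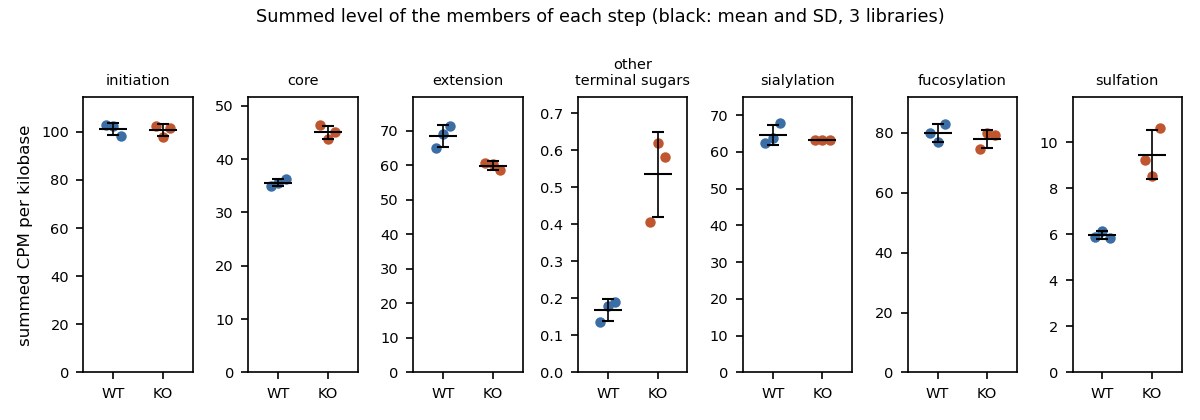
Summed level of the members of each step in CPM per kilobase (y axes from 0, a different scale in each panel), with 1 point per library and the mean and SD of 3 libraries in black. The core, sulfation and other terminal sugar sums are higher in every knockout-labelled library, the extension sum is lower, and initiation, sialylation and fucosylation overlap, with the sialylation ratio turning from 0.979 to 1.09 when levels are not divided by gene length. The other terminal sugar sum comes from B4GALNT3 alone.

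A list of 84 further genes of the pathway (related enzymes, donor supply, transporters and mucin proteins) was set beside the members. Of 59 tested, 8 rose and 16 fell, 13.6% and 27.1% of them, beside 12.0% and 12.4% of all tested genes. Their median log2 fold change was -0.04, and without wild-type library 3 the number higher was 5. The counts by class that follow are small and are read against the same 24.3% of all tested genes called either way. Among related enzymes of extension and branching 2 of 11 were higher and 4 lower. GCNT2, the I-branching enzyme, rose from 5.34 ± 1.09 to 11.4 ± 1.18 CPM, B3GNT9 fell from 8.46 ± 0.820 to 2.78 ± 0.450 CPM and B4GALNT4 from 116 ± 10.1 to 91.7 ± 2.46 CPM. GALNT9 was the only tested gene of 7 further GalNAc-transferases and fell from 8.80 ± 1.27 to 3.66 ± 0.400 CPM.

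Of 4 further sialic acid enzymes tested, 1 was lower, ST6GAL1, which acts mainly on N-glycans, from 6.42 ± 0.648 to 0.503 ± 0.234 CPM (log2 fold change -3.61). Of 5 further fucosyltransferases and ABO, 1 was higher and 2 lower. FUT1, which makes the H antigen, fell from 37.8 ± 1.07 to 17.1 ± 0.477 CPM. ABO at 24.8 ± 1.68 and 30.04 ± 2.30 CPM and FUT7 at 4.44 ± 1.28 and 2.795 ± 0.267 CPM were the other calls. The ABO call was lost when library 1 or 3 of either group was left out (edgeR adjusted p up to 0.153), and the FUT7 call without any library except wild-type 2 (up to 0.263; log2 fold change -0.43 instead of -0.66 without wild-type library 3). FUT7 also failed under DESeq2 (adjusted p = 0.058) and limma voom (adjusted p = 0.0615). Both further sulfotransferases tested were called, CHST3 of chondroitin falling from 13.7 ± 1.37 to 5.88 ± 0.432 CPM and GAL3ST4 rising from 0.367 ± 0.228 to 1.43 ± 0.0568 CPM. GAL3ST4 had 3, 11 and 5 counts in wild type, and its log2 fold change of 1.93 was 2.53 without wild-type library 2. Its wild-type libraries alone would not have passed the filter, nor would the knockout-labelled libraries for ST6GAL1. GAL3ST4 and ST6GAL1 could thus be tested only because the other group was high.

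Of 18 tested genes of donor sugar supply, 1 was higher and 3 lower, a share of 22.2% called that lies near the 24.3% of all tested genes. GMDS, the first enzyme from GDP-mannose to GDP-fucose, fell from 161 ± 12.1 to 105 ± 3.99 CPM. CMAS, which activates sialic acid, rose from 82.2 ± 1.595 to 102 ± 2.995 CPM. Of 9 Golgi transporters of nucleotide sugars and related ions, edgeR, DESeq2 and limma voom each called 0, and edgeR gave 2 of them an unadjusted p below 0.05. SLC35B2, the sulfate donor transporter and most abundant of them per kilobase, had 120 ± 4.03 and 109 ± 1.82 CPM (edgeR adjusted p = 0.0879, and 0.0375 without wild-type library 2). Among the mucin proteins that carry the chains, 3 of 9 tested were higher and 4 lower, with MUC17 at 28.8 ± 2.92 and 72.8 ± 12.6 CPM, MUC3A at 20.0 ± 0.451 and 34.7 ± 0.908 CPM and MUC5B at 45.1 ± 3.11 and 15.4 ± 2.38 CPM, all called. MUC5AC, the gel-forming mucin of the stomach, which is named here after its values were seen because it had the largest change among the tested mucins, fell from 209 ± 16.3 to 21.3 ± 5.25 CPM (log2 fold change -3.30, SE 0.16, edgeR adjusted p = 4.155e-06). MUC3A and MUC17 lie on chromosome 7, and MUC5AC and MUC5B on chromosome 11, each pair among close relatives. Sequence shared between mucins was not examined, so the counts of all of these are uncertain.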

How the data were processed

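The authors deposited 1 table of raw read counts per gene for 6 libraries. The submitters' processing notes name HISAT2 2.0.5 and featureCounts 1.5.0-p3, and list a mouse build. All 58735 named gene identifiers are nevertheless human and present in GENCODE 29, and the 48 members have the GRCh38 positions and merged exon lengths given there, so the deposited gene length column, in bases and one of the other values of that table, was used for levels per kilobase. The sources used here give neither the strand setting nor the treatment of shared reads, so reads of overlapping genes on either strand cannot be told apart. Rows without a gene name (232 of 58967, holding 0.13 to 0.25% of a library) were left out.

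Genes were tested by the quasi-likelihood method of edgeR (edgeR 4.0.16, R 4.3.3, two-sided, robust, TMM scaling, filterByExpr with a minimum count of 10), fitted on all genes, with Benjamini-Hochberg adjustment over the 15351 tested and calls at 0.05. SEs and 95% intervals derive from its F statistic. Levels are CPM or CPM per kilobase, as mean ± SD over 3 libraries. Counting intervals are Clopper-Pearson intervals at 95% on counts pooled over the libraries of each group. They cover counting error only and leave out the spread among libraries. They also take each read as independent, and reads here carry no molecular identifiers. Summed levels and ratios are descriptions with no test, and the ratio pairs were picked after values were seen.

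Members and lists were chosen with earlier results of these data known. Values in every library are given for members called with a log2 fold change of 0.5 or more in either direction and for the most abundant member of each step, and for ST3GAL1 beside ST6GALNAC1. From each class of other genes up to 3 called genes by smallest p are named, or the most abundant where none was called, and 1 gene this rule picks is not reported here. Alternatives were other scalings, DESeq2 1.42.0, limma voom (limma 3.58.1), other filters, no robust estimation, a replicate block and each library left out. Python 3.11.15 made tables and plots. No 2 libraries of a group agreed within sampling noise (chi-square per degree of freedom 3.81 to 9.07). The promoter sequences are RefSeq's.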

Additional observations from a re-analysis of the deposited data

How the results depend on the processing

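Of the 18 members called, 13 kept their call and direction in all 14 alternative settings, and 5 (GALNT2, GALNT6, B4GALT1, FUT3 and FUT8) lost it in at least 1, always with the same direction. Members called higher ranged from 8 to 10 and lower from 5 to 8. With the replicate block 5 members were called lower and 8 higher, and GALNT2, GALNT6, B4GALT1, FUT3 and FUT8 lost their calls, as did ABO (adjusted p = 0.0581) and FUT7 (adjusted p = 0.0593) among the other pathway genes. The labels do not say whether a number marks a shared batch. For same-numbered libraries the r of deviations from group means was 0.023, -0.075 and -0.096. With only 3 libraries per group these values cannot decide whether such libraries shared a batch. Leaving out 1 library gave 8 to 9 members higher and 5 to 8 lower, and 5 to 7 other pathway genes higher. Over all genes it gave 1329 to 2189 higher and 1376 to 2401 lower. Some members near no change reversed sign without being called: GALNT10 at 0.014 and ST3GAL6 at 0.005 with total counts, ST3GAL6 at 0.010 under limma voom and GALNT5 at -0.002 without a filter. Leaving out 1 library, GALNT4 ran from -0.314 to 0.189, GALNT5 from -0.025 to 0.063, B4GALT4 from -0.068 to 0.006, ST6GALNAC4 from -0.057 to 0.009, ST3GAL6 from -0.203 to 0.165 and FUT4 from -0.014 to 0.085. Without division by gene length, which weights short transcripts less, the ratio of summed levels (knockout-labelled over wild type) was 1.39 for core, 1.09 for sialylation and 1.23 for sulfation, against 1.27, 0.979 and 1.59. FXYD3 was called higher without a filter (0.52), with the replicate block (0.54) and without wild-type library 2 (0.79). The cause of these changes was not tested. Depth limits the 8 members below the filter, whose counts per group were 26 or fewer.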

Other observations

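B3GALNT1, which makes the globoside glycolipid and stands in the list of related enzymes, was chosen here after its values were seen. It was counted 23, 24 and 9 times in wild type and had 0 counts in each knockout-labelled library. It lay below the filter on low counts, and without a filter edgeR gave it an adjusted p of 1.719e-09.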
